A study of Macaca fascicularis with 6 samples.

Results

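Autophagy is the route by which a cell wraps part of its cytoplasm in a double membrane and delivers it to the lysosome. The kinase ULK1 starts it, the Beclin 1 complex marks the membrane with a phosphoinositide, and a ubiquitin-like conjugation system attaches small proteins of the ATG8 family to the growing membrane. In that system ATG7 is the activating enzyme for both ubiquitin-like proteins, ATG3 passes ATG8 proteins to their lipid, and ATG12 joined to ATG5 directs where this happens. Receptors such as SQSTM1 bind cargo to ATG8 proteins, and LAMP2 is a membrane protein of the lysosome that receives the vesicle. In mice, maternal autophagy is known to be needed by embryos soon after fertilisation.

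The 10 genes described here, chosen by symbol as 1 or more members for each of these steps, are ULK1, BECN1, ATG7, ATG3, ATG12, ATG5, MAP1LC3B, GABARAPL2, SQSTM1 and LAMP2. All 10 were among the 28164 genes of the deposited count table, and all 10 were among the 15815 with enough counts to be tested. The samples were oocytes of cynomolgus monkeys (Macaca fascicularis), with 2 libraries in each of 3 groups. IVM MII oocytes had matured in culture to the arrest in second metaphase, IVO MII oocytes had matured in vivo to the same arrest, and GV oocytes were immature, with the germinal vesicle, the nucleus of meiotic prophase, still intact. Oocytes of all 3 groups were wild type, untreated and stripped of surrounding cells. How old the animals were, and how many animals or oocytes went into each library, is not stated in the labels.

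Levels are given as CPM, read counts scaled to library size after adjustment by TMM factors, which correct for differences in RNA composition. Only comparisons between genes use TPM, which also divides by exon length. Fold changes and p-values come from edgeR's quasi-likelihood test fitted to all 6 libraries. A gene was called when its p was under 0.05 after Benjamini-Hochberg adjustment over the whole table of tested genes. Nothing in the labels says that the libraries of a group came from separate animals, so the p-values measure the spread between these libraries, which may be technical. Levels are shares of the poly(A)-primed RNA of a library. A change in the amount of a transcript, a change in how well its tail was captured, and fewer cells of a type cannot be told apart from such shares.

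Library totals were 33875153 to 35515139 counts in IVM MII, 27707021 to 29354497 in IVO MII and 31421282 to 32777458 in GV. The 12 oocyte markers examined were all tested, and their summed level was 16156 to 18468 CPM in IVM MII, 9356 to 12137 in IVO MII and 32303 to 38908 in GV. Of 18 cumulus and granulosa cell markers, 16 were in the table and 5 had enough counts to be tested. Their summed level was 86.1 to 88.2 CPM in IVM MII, 36.7 to 53.4 in IVO MII and 33.9 to 40.3 in GV. FOXL2, INHA, STAR, AMHR2 and PTX3 were at 0 in every group. Of the 5 tested, 3 were called between the MII groups, GREM1, TNFAIP6 and RUNX2, each with more in IVM MII, against 24.6% of all genes tested (14.3% higher). FSHR (log2 0.49, adjusted p = 0.301) and HAS2 (log2 -0.24, adjusted p = 0.648) were not called. GREM1 averaged 29.0 CPM in IVM MII, 4.01 CPM in IVO MII and 3.97 CPM in GV. Markers of theca, stroma and endothelium summed to 151 to 159 CPM in IVM MII, 84.0 to 87.1 in IVO MII and 327 to 386 in GV, while LUM and KDR were at 0 throughout. VWF among them averaged 103 CPM in IVM MII, 43.9 CPM in IVO MII and 312 CPM in GV. It made up most of the sums in IVM MII and GV, but not in IVO MII replicate 1 (41.8 of 87.1 CPM). PECAM1 was lowest in GV, averaging 19.4 CPM in IVM MII, 15.6 CPM in IVO MII and 9.34 CPM in GV. CDH5 averaged 31.3, 24.8 and 32.8 CPM in these groups. Blood and immune markers summed to 5.88 to 6.18, 4.38 to 7.34 and 13.5 to 13.7 CPM in the same groups, with CD3E and HBB at 0 in each. The part of such cells in the results below was not tested.

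The autophagy genes did not move as a block. Compared with GV, both kinds of MII oocyte had about 9-fold less ATG7 (9.23-fold in IVM MII and 9.51-fold in IVO MII) and more than 2-fold more BECN1, MAP1LC3B and LAMP2. The conjugating enzyme ATG3 separated the maturation routes most, being 4.18-fold higher in IVM MII than in IVO MII, and in IVO MII it was 4.96-fold lower than in GV. MAP1LC3B was the other gene called between the routes, 1.84-fold lower in IVM MII than in IVO MII, a call that ended when any of 3 libraries was left out. ULK1, ATG5 and GABARAPL2 were called in none of the 3 comparisons.

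**Figure D1:**
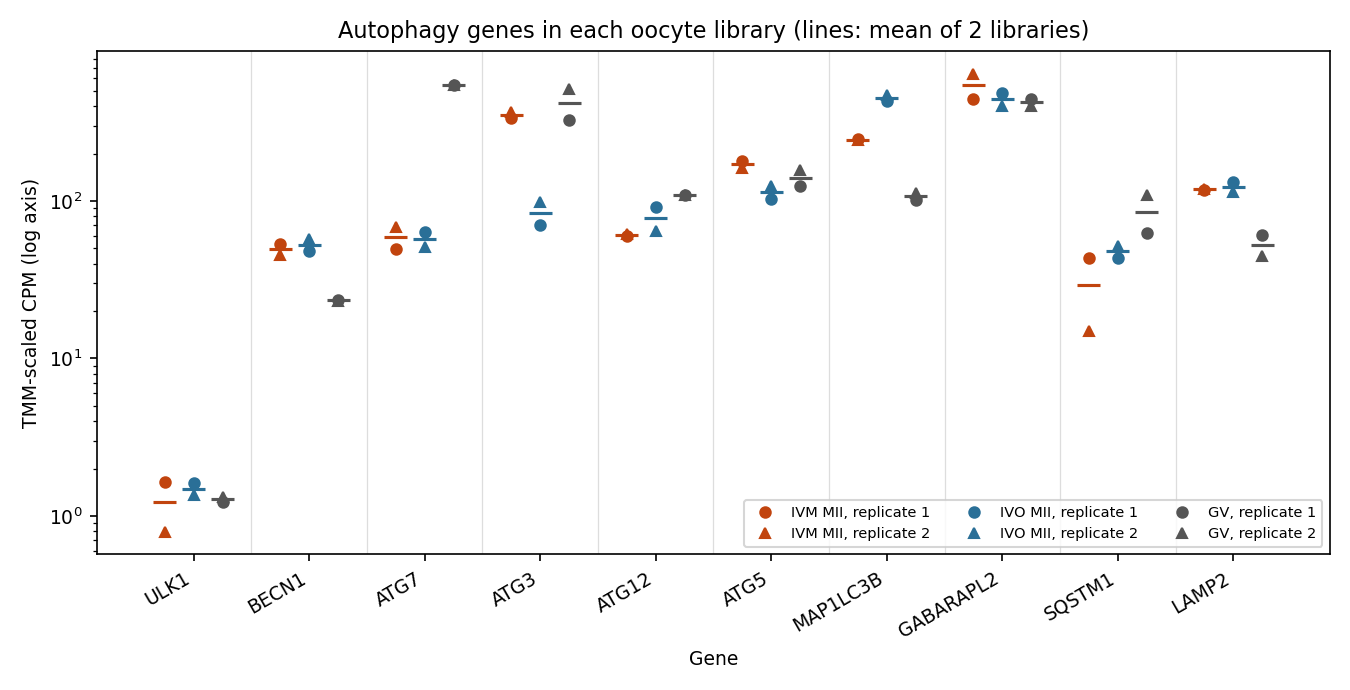
TMM-scaled CPM (log axis) of the 10 autophagy genes in each library, with IVM MII, IVO MII and GV side by side and a line at the mean of 2 libraries. ATG7 stood at 68.2 CPM or less in all 4 MII libraries and at 542 and 543 CPM in GV, and ATG3 was lowest in the 2 IVO MII libraries.

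ULK1, the kinase that starts autophagy in response to nutrient and energy signals, had the lowest level per exon length of the 10 (chromosome 11, 136400939 to 136418518, on the macFas5 build that all coordinates here refer to). It had 71 and 28 counts in the IVM MII libraries, 42 and 40 in IVO MII and 36 and 39 in GV. Its level was 1.64 and 0.796 CPM in IVM MII, 1.62 and 1.36 CPM in IVO MII, and 1.23 and 1.32 CPM in GV. The groups overlapped except that both IVO MII libraries lay just above both GV libraries. At this depth the exact 95% Poisson interval of the IVM MII counts ran from 55.5 to 89.6 and from 18.6 to 40.5, so the spread between these libraries was larger than counting error, which is all the intervals cover. No difference was detectable: the log2 fold change was -0.28 ± 0.46 for IVM MII over IVO MII (adjusted p = 0.692), with a 95% interval of -1.29 to 0.73. Against GV it was -0.05 in IVM MII (adjusted p = 0.931) and 0.23 in IVO MII (adjusted p = 0.698). A value after ± is here and below the standard error of a log2 fold change or the SD of a mean over n = 2 libraries.

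BECN1 encodes Beclin 1, the scaffold of the class III phosphoinositide 3-kinase complex that nucleates the autophagosome membrane (chromosome 16, 54565699 to 54579236). Its level was 53.2 and 45.6 CPM in IVM MII, 48.2 and 57.6 CPM in IVO MII, and 23.7 and 23.1 CPM in GV. All 4 MII libraries lay above both GV libraries, and the MII groups overlapped. BECN1 rose 2.11-fold in IVM MII (log2 1.08 ± 0.22, adjusted p = 0.00188) and 2.26-fold in IVO MII (log2 1.18 ± 0.22, adjusted p = 0.000765) relative to GV. Between the MII groups the log2 difference was -0.10 with an interval of -0.57 to 0.37 (adjusted p = 0.771). CNTD1 on the opposite strand shares 789 bases, 33.7% of the BECN1 exon bases, and the counting used no strand. By the default of featureCounts, a fragment that overlaps exons of both genes is counted for neither. CNTD1 itself averaged 0.757 CPM in IVM MII, 0.492 CPM in IVO MII and 0.373 CPM in GV.

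ATG7, the enzyme that activates both ATG12 and the ATG8 proteins, showed the largest change of the 10 genes in both comparisons with GV (chromosome 2, 142265315 to 142532964). It stood at 49.4 and 68.2 CPM in IVM MII, 63.2 and 51.0 CPM in IVO MII, and 542 and 543 CPM in GV. The MII groups overlapped, and both lay far below GV, whose libraries nearly coincided. The log2 fold change was -3.21 ± 0.26 for IVM MII over GV (adjusted p = 3.95e-06) and -3.25 ± 0.26 for IVO MII over GV (adjusted p = 2.38e-06). The difference between IVM MII and IVO MII was not called (log2 0.04, interval -0.47 to 0.56, adjusted p = 0.913).

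ATG3, the enzyme that hands ATG8 proteins on to phosphatidylethanolamine, lies on the same chromosome (2, 159631822 to 159660525) and behaved otherwise. Its level was 337 and 369 CPM in IVM MII, 70.3 and 98.5 CPM in IVO MII, and 326 and 512 CPM in GV. IVM MII fell within the range of GV, and both IVO MII libraries lay below all other libraries. ATG3 was 4.18-fold higher in IVM MII than in IVO MII, at log2 2.06 ± 0.28 (adjusted p = 0.000404). In IVO MII it fell by 2.31 ± 0.28 on the log2 scale relative to GV (adjusted p = 4.52e-05), and IVM MII over GV gave -0.25 with an interval of -0.83 to 0.34 (adjusted p = 0.465). The ATG3 call between IVM MII and IVO MII held in all 16 alternative settings, with log2 fold changes of 1.84 to 2.34.

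ATG12, the ubiquitin-like protein that is joined to ATG5 (chromosome 6, 114674547 to 114685944), was at 59.6 and 61.4 CPM in IVM MII, 91.6 and 64.7 CPM in IVO MII, and 109 and 108 CPM in GV. Both MII groups lay below GV, and IVM MII lay below IVO MII, without overlap. It fell by 0.84 ± 0.23 on the log2 scale in IVM MII relative to GV (adjusted p = 0.00919), and in IVO MII the log2 fold change was -0.47 ± 0.23 (adjusted p = 0.0907), with 0.14 under a gene length offset, -0.75 without IVO MII replicate 1 (adjusted p = 0.0348) and -0.79 under a strict filter on low counts (adjusted p = 0.00741). The difference between the MII groups, -0.37 with an interval of -0.86 to 0.12, was not called (adjusted p = 0.256). The call in IVM MII against GV ended without IVM MII replicate 1 (-0.79, adjusted p = 0.0628), with library totals (-0.55, adjusted p = 0.0584) and with the length offset (-0.42, adjusted p = 0.155). AP3S1 on the opposite strand shares 217 of the 1805 ATG12 exon bases, and it rose in both MII groups relative to GV, averaging 85.9 ± 9.62 CPM in IVM MII, 120 ± 2.03 CPM in IVO MII and 45.8 ± 2.96 CPM in GV.

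ATG5, the partner to which ATG12 is joined (chromosome 4, 67002205 to 67138914), was at 179 and 163 CPM in IVM MII, 103 and 124 CPM in IVO MII, and 125 and 157 CPM in GV. Both IVM MII libraries lay above all others, and those of IVO MII lay below GV by a narrow margin. The log2 fold change of IVM MII over IVO MII was 0.59 ± 0.22 with an adjusted p of 0.0746, past the threshold by library totals (0.81, adjusted p = 0.0311) and under the strict filter (0.65, adjusted p = 0.0435). Against GV the log2 fold changes were 0.28 in IVM MII (adjusted p = 0.314) and -0.31 in IVO MII (adjusted p = 0.252), with -0.63 (adjusted p = 0.0244) in IVO MII under the strict filter.

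MAP1LC3B encodes LC3B, the ATG8 protein most used to mark autophagosomes (chromosome 20, 75759004 to 75771805). Its level was 247 and 243 CPM in IVM MII, 432 and 469 CPM in IVO MII, and 102 and 112 CPM in GV. The 3 groups did not overlap, and the libraries of a group differed by at most a factor of 1.10. MAP1LC3B rose 2.29-fold in IVM MII (log2 1.19 ± 0.21, adjusted p = 0.000889) and 4.21-fold in IVO MII (log2 2.07 ± 0.22, adjusted p = 1.86e-05) relative to GV. IVM MII was lower than IVO MII by a log2 fold change of -0.88 ± 0.21 (adjusted p = 0.0115). That call ended without IVM MII replicate 1 (-0.87, adjusted p = 0.0596), IVM MII replicate 2 (-0.87, adjusted p = 0.0668) or IVO MII replicate 2 (-0.81, adjusted p = 0.0515), each of which leaves a group with a lone library that is assumed to vary like the others.

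GABARAPL2, an ATG8 protein of the GABARAP branch (chromosome 20, 63736053 to 63755360), was at 443 and 644 CPM in IVM MII, 484 and 399 CPM in IVO MII, and 444 and 401 CPM in GV. All 3 groups overlapped. The log2 fold changes were 0.30 for IVM MII over IVO MII (interval -0.25 to 0.85, adjusted p = 0.413), 0.36 for IVM MII over GV (interval -0.19 to 0.91, adjusted p = 0.246) and 0.06 for IVO MII over GV (interval -0.48 to 0.61, adjusted p = 0.841). By library totals the value of IVM MII over GV was called (0.64, adjusted p = 0.0287). An offset that removes the trend with gene length called both values against GV (0.86, adjusted p = 0.0185, in IVM MII and 0.77, adjusted p = 0.0262, in IVO MII).

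SQSTM1 encodes p62, the receptor that links ubiquitinated cargo to ATG8 proteins and is itself degraded by autophagy (chromosome 6, 179795256 to 179833713). Its level was 43.7 and 15.0 CPM in IVM MII, 43.6 and 52.1 CPM in IVO MII, and 62.5 and 109 CPM in GV. All MII libraries lay below both GV libraries, and the IVM MII libraries stood 2.92-fold apart. Relative to GV, SQSTM1 fell by 1.54 ± 0.42 on the log2 scale in IVM MII (adjusted p = 0.00921), and the log2 fold change in IVO MII was -0.84 ± 0.41 (adjusted p = 0.0979). The IVM MII call ended without IVM MII replicate 2 (-0.97, adjusted p = 0.0608), GV replicate 2 (-1.09, adjusted p = 0.0736), IVO MII replicate 1 (-1.54, adjusted p = 0.0609) or IVO MII replicate 2 (-1.54, adjusted p = 0.069). It ended by library totals (-1.19, adjusted p = 0.0576) and with no filter on low counts (-1.51, adjusted p = 0.096). The value was -2.48 without IVM MII replicate 1. For IVM MII over IVO MII the value was -0.71 ± 0.41 (adjusted p = 0.231), and -1.65 (adjusted p = 0.0181) without IVM MII replicate 1. In IVO MII over GV, leaving out GV replicate 1 or either IVM MII replicate brought the value past the threshold (-1.18, -0.83 and -0.84, adjusted p = 0.0417, 0.0292 and 0.0312), as did the strict filter (-1.16, adjusted p = 0.0318) and a fit of the 4 compared libraries alone (-0.83, adjusted p = 0.0298). MGAT4B shares 3.05% of the SQSTM1 exon bases on the opposite strand.

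LAMP2, a heavily glycosylated protein of the lysosomal membrane needed for autophagosomes to mature (chromosome X, 117098308 to 117141036), was at 118 and 120 CPM in IVM MII, 132 and 114 CPM in IVO MII, and 60.8 and 44.5 CPM in GV. The MII groups overlapped, and both lay above GV. LAMP2 rose 2.26-fold in IVM MII (log2 1.17 ± 0.23, adjusted p = 0.00144) and 2.33-fold in IVO MII (log2 1.22 ± 0.23, adjusted p = 0.000773) relative to GV. Between the MII groups the log2 difference was -0.05 with an interval of -0.54 to 0.45 (adjusted p = 0.898). The counts pool the splice forms of the gene.

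**Figure D2:**
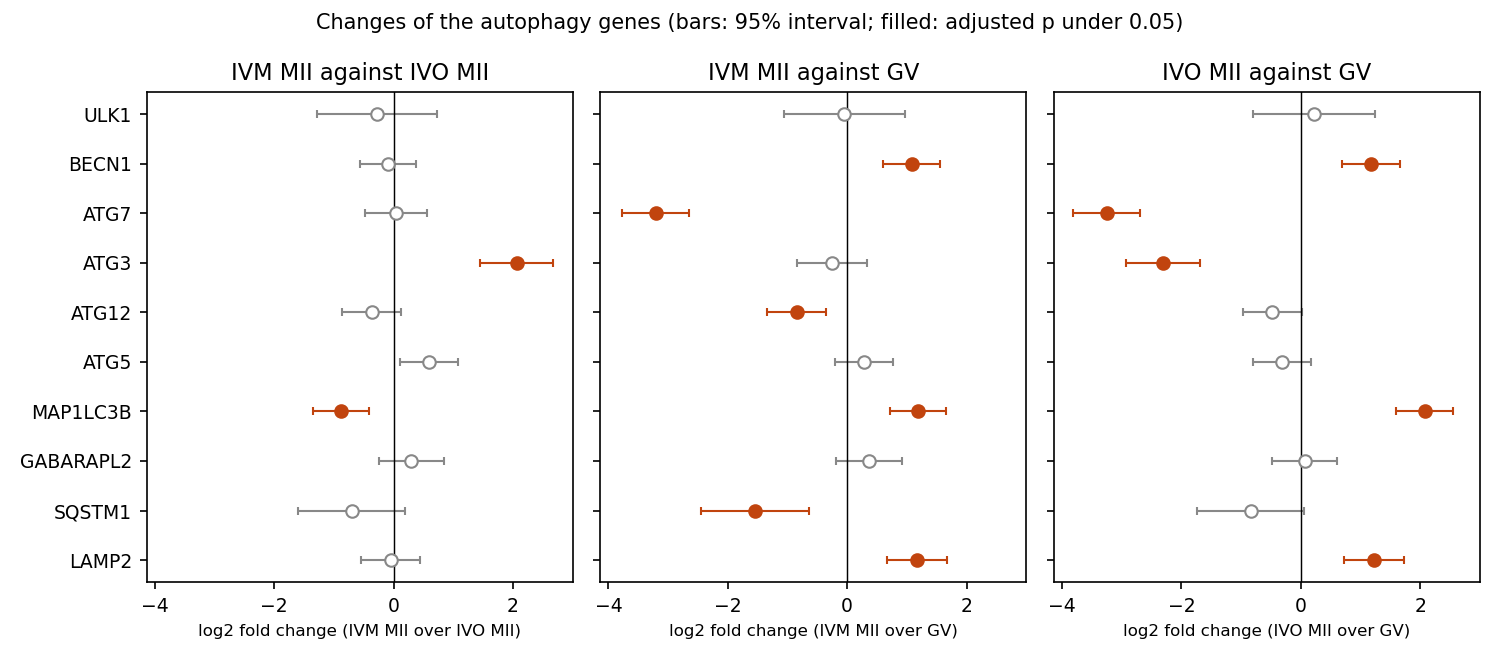
Log2 fold changes of the 10 genes (horizontal axis) in the 3 comparisons, with 95% intervals from the edgeR fit and filled points where the adjusted p was under 0.05. ATG3 and MAP1LC3B are filled in IVM MII against IVO MII, and ATG7 lies at -3.21 and -3.25 in the comparisons with GV.

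Counted over the 10 genes, 1 was higher and 1 lower in IVM MII than in IVO MII, where 24.6% of all genes tested were called (14.3% higher and 10.3% lower). The share of the 10 genes called was thus close to that of all genes. In IVM MII against GV, 3 were higher (BECN1, MAP1LC3B and LAMP2) and 3 lower (ATG7, ATG12 and SQSTM1), with 50.3% of all genes called (25.6% higher and 24.7% lower). In IVO MII against GV, 3 were higher (BECN1, MAP1LC3B and LAMP2) and 2 lower (ATG7 and ATG3), with 58.5% of all genes called (28.1% higher and 30.5% lower). The median log2 fold change of the 10 genes was -0.07 in IVM MII over IVO MII, 0.11 in IVM MII over GV and -0.12 in IVO MII over GV, with 0.02, 0.06 and -0.07 over all genes. Libraries of the compared groups did not overlap for 4 of the 10 genes in IVM MII against IVO MII (63.0% of all genes tested), 7 in IVM MII against GV (77.8%) and 9 in IVO MII against GV (80.2%). The comparisons with GV share the GV libraries, so their values are given side by side and are not independent. Scaling by library totals made 75.8% of the called genes higher in IVM MII than in IVO MII in place of 58.0%, and 63.7% higher in IVM MII than in GV in place of 50.9%. With that scaling the median gene of the table stood at log2 0.24 in IVM MII over IVO MII and 0.35 in IVM MII over GV.

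**Figure D3:**
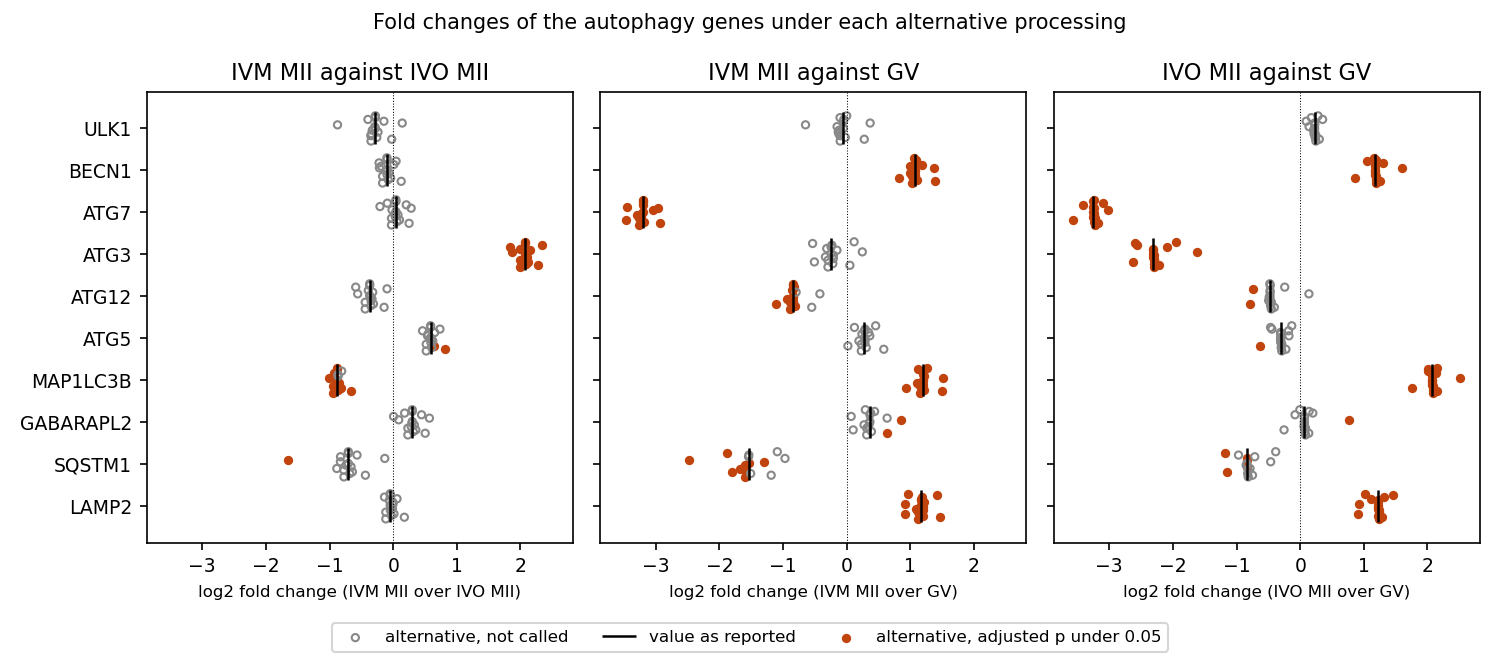
Log2 fold changes of the 10 genes under 16 alternative settings (points, 15 for ULK1, which a strict filter left out; filled where the adjusted p was under 0.05), with a black tick at the value as reported. The points of ATG3 in IVM MII against IVO MII run from 1.84 to 2.34, while those of SQSTM1 in IVM MII against GV run from -2.48 to -0.97.

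Per exon length, GABARAPL2 ranked highest in every group, at 832 ± 95.6 TPM in IVM MII, 614 ± 49.6 TPM in IVO MII and 458 ± 46.0 TPM in GV. It made up 42.7%, 42.3% and 30.8% of the summed TPM of the 10 genes in these groups. In IVM MII the order below it was ATG3 at 523 TPM, MAP1LC3B at 251, ATG5 at 115, ATG12 at 78.1, BECN1 at 49.6, ATG7 at 43.7, LAMP2 at 29.7 and SQSTM1 at 28.5, with ULK1 last at 0.579 TPM. The neighbours BECN1 and ATG7, and LAMP2 and SQSTM1, were not apart in both IVM MII libraries. In IVO MII, MAP1LC3B came next at 414 TPM, followed by ATG3 at 113, ATG12 at 89.7, ATG5 at 68.6, BECN1 at 47.2, SQSTM1 at 39.7, ATG7 at 38.5, LAMP2 at 27.4 and ULK1 at 0.608 TPM. There ATG3 and ATG12, BECN1 and SQSTM1, and SQSTM1 and ATG7 were not apart. In GV, ATG3 at 431 TPM did not stand apart from GABARAPL2, and ATG7 ranked next at 285 TPM. Below them came ATG12 at 97.5, MAP1LC3B at 76.1, ATG5 at 65.6, SQSTM1 at 54.6, BECN1 at 16.2, LAMP2 at 9.19 and ULK1 at 0.404 TPM, with ATG5 and SQSTM1 not apart. By these means MAP1LC3B ranked at place 3 in IVM MII, 2 in IVO MII and 5 in GV, and ATG7 at place 7 in IVM MII, 8 in IVO MII and 3 in GV. In single libraries the number of the 10 genes at the place of their group mean was 7 and 8 in IVM MII, 6 and 10 in IVO MII, and 10 and 8 in GV.

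**Figure D4:**
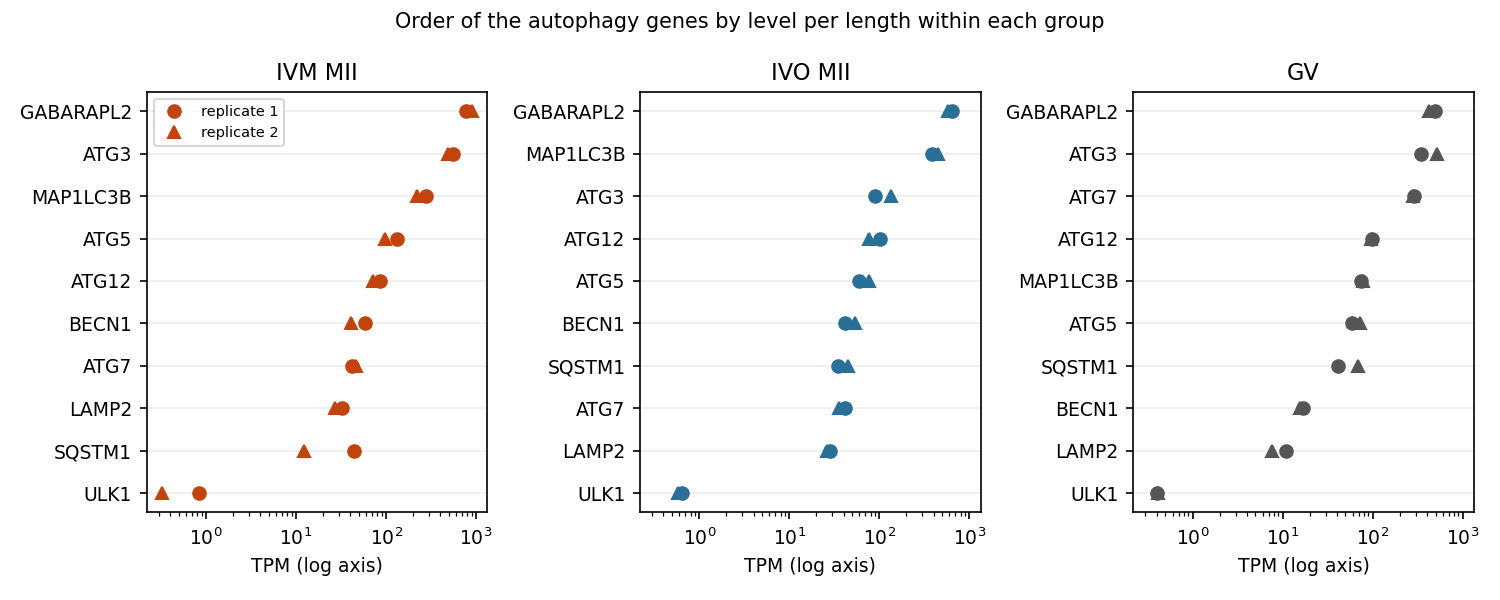
Level per exon length (TPM, log axis) of the 10 genes in each library, sorted by the group mean from top to bottom within IVM MII, IVO MII and GV. GABARAPL2 is on top and ULK1 at the bottom of each panel, and ATG7 stands at place 7 in IVM MII, 8 in IVO MII and 3 in GV. BECN1, ATG12 and SQSTM1 share exon bases with another gene, which can lower their TPM.

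The other ATG8 genes in the table were less abundant than MAP1LC3B and GABARAPL2 in both MII groups. MAP1LC3C was at 95.03 ± 69.2 TPM in IVM MII, 117 ± 75.3 TPM in IVO MII and 123 ± 44.6 TPM in GV, which put its GV mean above the 76.1 ± 3.08 TPM of MAP1LC3B. GABARAP was at 17.5, 14.2 and 20.2 TPM, GABARAPL1 at 17.7, 20.4 and 10.7 TPM, and MAP1LC3A at 7.39, 1.30 and 3.45 TPM in IVM MII, IVO MII and GV. Among the 6 ATG8 genes, MAP1LC3A was higher and MAP1LC3B lower in IVM MII than in IVO MII, 33.3% against 24.6% of all genes. MAP1LC3A rested on 184 and 58 counts in IVM MII and 7 and 27 counts in IVO MII (log2 2.29, adjusted p = 0.0175). That call ended without IVM MII replicate 1 (1.47, adjusted p = 0.15) or IVO MII replicate 1 (1.69, adjusted p = 0.0733). Relative to GV, 1 rose and 1 fell in IVM MII, 33.3% of the 6 against 50.3% of all genes, and 1 rose and 2 fell in IVO MII, 50% against 58.5%. The genes that fell were GABARAP in both and MAP1LC3A in IVO MII. In IVM MII, GABARAP was not called by library totals (-0.43, adjusted p = 0.216) or with no filter on low counts (-0.70, adjusted p = 0.0643). With the gene length offset it was at -0.10 (adjusted p = 0.763). The GABARAP call in IVM MII ended when any of the 4 compared libraries was left out (adjusted p = 0.0864 to 0.171). In IVO MII, GABARAP was not called once IVO MII replicate 1, GV replicate 1 or GV replicate 2 was left out (adjusted p = 0.0983, 0.0724 and 0.0608), nor MAP1LC3A once IVO MII replicate 1 or GV replicate 2 was (0.122 and 0.112). BECN2, a paralog of BECN1, had 0 counts in all libraries. No other copy of a member was found in the table by name. Of 11294 entries with a LOC identifier, only 788 could be given a symbol, so copies among the rest would have been missed. Reads shared with unannotated processed pseudogenes cannot be told apart in such counts.

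The wider pathway was followed in 116 genes that include the 10, in 9 lists by role, of which 115 were in the table and 110 were tested. In IVM MII against IVO MII, 13 of the 110 were higher and 12 lower, 22.7% against 24.6% of all genes, with a median log2 fold change of 0.09. In IVM MII against GV, 23 were higher and 31 lower, 49.1% against 50.3%, with a median of -0.18. In IVO MII against GV, 26 were higher and 39 lower, 59.1% against 58.5%, with a median of -0.45. The shares called were near those of all genes in each comparison. Leaving out any single library gave fewer calls between the MII groups, both among the 110 genes and over the whole table. A smaller count in such a fit is thus not particular to autophagy genes. The counts of single lists with a library left out, given below, were not compared with those of all genes in the same setting.

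Of the 11 genes of the conjugation list, 2 differed between the MII groups, both with more in IVM MII, 18.2% against 24.6% of all genes. Beside ATG3 this was ATG16L1, which brings the ATG12 and ATG5 conjugate to the membrane, at 29.1 ± 7.79 CPM in IVM MII, 7.43 ± 0.397 CPM in IVO MII and 14.5 ± 3.55 CPM in GV. ATG16L1 was 3.92-fold higher in IVM MII than in IVO MII (adjusted p = 0.000626). It rose in IVM MII and fell in IVO MII relative to GV, 2.01-fold higher (adjusted p = 0.0103) and 1.95-fold lower (adjusted p = 0.0114). The rise was not called without IVM MII replicate 1 (0.73, adjusted p = 0.0903) or GV replicate 1 (0.77, adjusted p = 0.0977), nor the fall without GV replicate 2 (-0.69, adjusted p = 0.116). In the same list 2 rose and 4 fell in IVM MII relative to GV (54.5%, against 50.3% of all genes), and 1 rose and 7 fell in IVO MII (72.7%, against 58.5%). DESeq2 and limma-voom each called 6 genes of the list in IVO MII against GV, in place of 8 by edgeR. Leaving out 1 library brought the number that fell to between 2 and 4 in IVM MII and between 4 and 7 in IVO MII. ATG4B, a protease that trims ATG8 proteins, fell to 3.19 CPM in IVM MII and 4.97 CPM in IVO MII, against 26.1 CPM in GV, 8.15-fold and 5.25-fold lower (adjusted p = 1.57e-05 and 4.6e-05).

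In the ULK initiation complex (5 genes), 1 differed between the MII groups, with less in IVM MII (20% against 24.6% of all genes). That was RB1CC1, the scaffold FIP200, at 84.0 ± 3.32 CPM in IVM MII, 168 ± 12.9 CPM in IVO MII and 52.5 ± 10.5 CPM in GV, 2.00-fold lower in IVM MII than in IVO MII (adjusted p = 0.00755). Its call ended without IVM MII replicate 1 (-0.93, adjusted p = 0.0616). ULK2, the paralog of ULK1, was at 49.9 CPM in IVM MII, 32.7 CPM in IVO MII and 21.5 CPM in GV and rose 2.33-fold in IVM MII relative to GV (adjusted p = 0.00106). Its rise in IVO MII, 1.53-fold (adjusted p = 0.0345), was not called in 5 of 16 alternative settings, among them leaving out IVO MII replicate 1 (adjusted p = 0.092), IVO MII replicate 2 (0.0767) or GV replicate 2 (0.237). The class III kinase list (8 genes) had 0 called between the MII groups by edgeR, against 24.6% of all genes. It had 0 at an unadjusted p under 0.05 and 0 by DESeq2 or limma-voom. The edgeR count did not stay at 0 in every fit with a library left out. Relative to GV, BECN1 rose in both MII groups and 1 gene fell in IVO MII. These calls were 12.5% of the list in IVM MII (50.3% of all genes) and 25% in IVO MII (58.5%). DESeq2 and limma-voom each called 2 genes of the list in IVM MII against GV. Of 8 tested genes of membrane supply, 2 were called between the MII groups, both with more in IVM MII (25% against 24.6% of all genes), and 0 without IVM MII replicate 2. Relative to GV, 2 rose and 1 fell in IVM MII (37.5% against 50.3%), and 2 rose and 2 fell in IVO MII (50% against 58.5%). ATG2B, a lipid transfer protein, rose to 42.6 CPM in IVM MII and 49.4 CPM in IVO MII, against 18.7 CPM in GV (adjusted p = 0.0044 and 0.00121). VMP1, a lipid scramblase of the endoplasmic reticulum, fell to 18.7 CPM in IVM MII and 17.2 CPM in IVO MII, against 48.5 CPM in GV (adjusted p = 0.000468 and 0.000169).

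Among 18 tested cargo receptors and mitophagy genes, the MII groups differed in 4, with 2 higher and 2 lower in IVM MII, 22.2% against 24.6% of all genes. Without IVM MII replicate 2 only 1 of the 18 was called, lower in IVM MII. PHB2, a mitophagy receptor of the inner mitochondrial membrane, stood at 4.92 ± 0.769 CPM in IVM MII, 15.4 ± 4.35 CPM in IVO MII and 21.3 ± 3.76 CPM in GV, 3.12-fold lower in IVM MII than in IVO MII (adjusted p = 0.00206). RTN3, a receptor for endoplasmic reticulum tubules, was at 252 CPM in IVM MII, 120 CPM in IVO MII and 244 CPM in GV (log2 1.07, adjusted p = 0.00644, for IVM MII over IVO MII, and 0.87, adjusted p = 0.0602, without IVM MII replicate 2). Relative to GV, 4 rose and 6 fell in IVM MII (55.6% against 50.3% of all genes) and 6 rose and 5 fell in IVO MII (61.1% against 58.5%). TAX1BP1, a ubiquitin-binding receptor, rose to 599 CPM in IVM MII and 951 CPM in IVO MII, against 279 CPM in GV (adjusted p = 0.00304 and 0.000108). NBR1, a receptor with a domain layout like that of SQSTM1, rose 2.02-fold in IVM MII and 1.90-fold in IVO MII relative to GV (adjusted p = 0.00235 and 0.00295).

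The lysosome list had 16 tested genes, with 2 higher and 2 lower in IVM MII against IVO MII (25% against 24.6% of all genes), or 0 higher and 3 lower without IVM MII replicate 1. CTSB, the protease cathepsin B, was at 44.6 ± 14.8 CPM in IVM MII, 150 ± 26.6 CPM in IVO MII and 256 ± 28.8 CPM in GV, 3.36-fold lower in IVM MII than in IVO MII (adjusted p = 0.000915). Relative to GV, 5 rose and 2 fell in IVM MII (43.8% against 50.3%) and 6 rose and 4 fell in IVO MII (62.5% against 58.5%), where 2 fell without IVO MII replicate 1, GV replicate 1 or GV replicate 2. Beside LAMP2, the cholesterol transporter NPC1 rose to 74.5 CPM in IVM MII and 144 CPM in IVO MII, against 39.4 CPM in GV (adjusted p = 0.00389 and 3.19e-05). ATP6V0D1, a subunit of the proton pump, fell to 27.0 CPM in IVM MII and 30.9 CPM in IVO MII, against 220 CPM in GV (adjusted p = 1.5e-05 and 1.61e-05). Of 14 fusion genes, 1 was higher and 4 lower in IVM MII against IVO MII (35.7% against 24.6% of all genes), and without IVM MII replicate 2 only 1 was called, lower in IVM MII. Without IVO MII replicate 1 the fusion counts were 1 higher and 1 lower, and without IVM MII replicate 1 they were 1 higher and 2 lower. Relative to GV, 1 fusion gene rose and 8 fell in IVM MII (64.3% against 50.3%), and 1 rose and 6 fell in IVO MII (50% against 58.5%). The fusion list's median log2 fold change was -1.53 in IVM MII over GV, against 0.06 over all genes. In IVO MII over GV it was -0.56, against -0.07. The conjugation list had medians of -0.56 in IVM MII over GV and -1.21 in IVO MII over GV. VAMP8, a SNARE of autophagosome fusion, fell to 17.8 CPM in IVM MII and 12.7 CPM in IVO MII, against 213 CPM in GV (adjusted p = 1.55e-06 and 5.47e-07). Among 24 genes of mTORC1 and AMPK control, 3 were higher in IVM MII than in IVO MII and 2 lower (20.8% against 24.6% of all genes), 1 higher and 0 lower without IVM MII replicate 2, with LAMTOR2, a subunit of the lysosomal anchor of mTORC1, at 51.5 ± 0.209 CPM in IVM MII and 24.6 ± 5.15 CPM in IVO MII (adjusted p = 0.00623). Another subunit, LAMTOR4, fell to 2.73 CPM in IVM MII and 2.48 CPM in IVO MII, against 60.2 CPM in GV (adjusted p = 2.45e-06 and 1.45e-06). In that list 5 rose and 8 fell in IVM MII relative to GV (54.2% against 50.3%), and 6 rose and 11 fell in IVO MII (70.8% against 58.5%), or 3 and 8 in IVO MII without GV replicate 1.

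**Figure D5:**
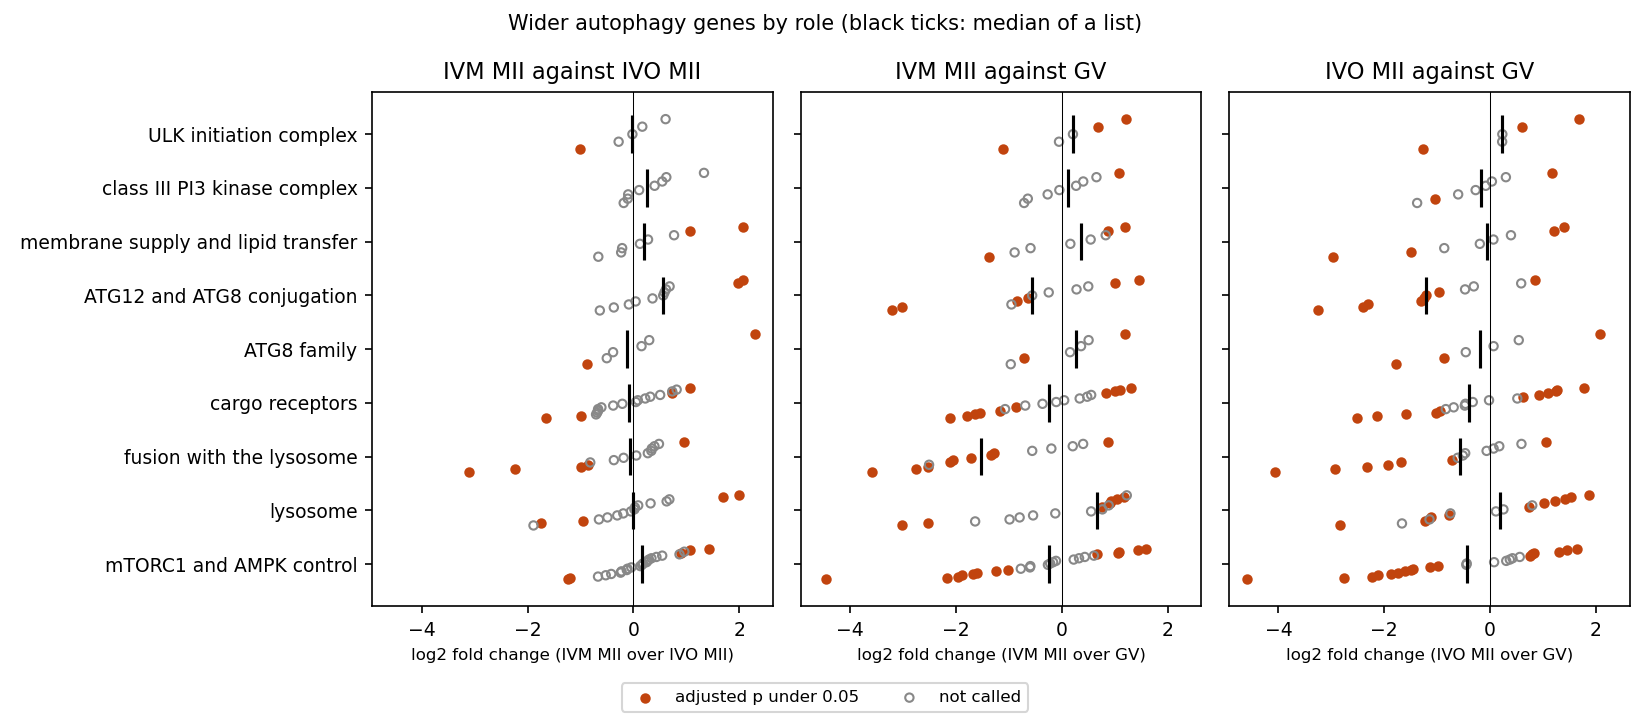
Log2 fold changes (horizontal axis) of the tested genes of the 9 role lists in the 3 comparisons, 1 point per gene, filled where the adjusted p was under 0.05, with a black tick at the median of a list. Lists hold points on both sides of 0 in each comparison with GV. The fusion list has a median of -1.53 in IVM MII over GV and -0.56 in IVO MII over GV. The conjugation list has -0.56 and -1.21 in the same comparisons.

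Among 5875 other tested genes with a symbol and a mean of at least 10 CPM, those whose log2 CPM followed ATG3 most closely over the 6 libraries were GGH and MRPS25, with a Pearson r of 0.998 and 0.997. GGH, a lysosomal hydrolase of folates, was at 20.0 CPM in IVM MII, 4.24 CPM in IVO MII and 23.0 CPM in GV. Closest to MAP1LC3B were STAU2 and TMEM216, each with r = 0.999. TMEM216 was at 90.5 CPM in IVM MII, 188 CPM in IVO MII and 29.7 CPM in GV. These are descriptions of likeness over libraries that fall into 3 groups, with no test.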

How the data were processed

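The authors deposited a table of raw counts per gene, with the summed exon length of each gene. Per the file headers, featureCounts 2.0.1 made the counts as fragments over exons by gene on the RefSeq annotation of macFas5, with no strand option and no option to count a fragment for more than 1 gene. The submitters' processing notes also name fastp, FastQC, Bowtie2 and SAMtools. Per the labels' protocols, cDNA was primed on poly(A) tails, amplified by template switching, tagmented and sequenced as paired reads. Bowtie2 is not a spliced aligner, so fragments across exon junctions may have been lost or placed in processed pseudogenes. The labels name no molecular identifiers. The Poisson intervals of the ULK1 counts cover counting error only. The 95% intervals of fold changes come from the edgeR fit and also cover the spread between libraries.

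Genes passing edgeR's filterByExpr were fitted with TMM factors in 1 quasi-likelihood model of 3 groups with robust dispersions (edgeR 4.0.16 in R 4.3.3, 3 residual degrees of freedom). Tests were two-sided. A standard error is the log2 fold change divided by the root of its F, and a 95% interval uses that gene's degrees of freedom. TPM was computed from counts and exon length. All 6 sample columns were used. RETREG1 was found under an older symbol, and NCOA4 was not matched.

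The members and gene lists were chosen with earlier results of these data known. Other genes were named if they were called, reached 10 CPM in the higher group and were among the 3 smallest adjusted p of their list and direction. The 2 genes most like a member called between the MII groups were named too. The other ATG8 genes and genes sharing exons with a member were named after their values were seen. Alternatives were RLE factors, library totals, no filter, a filter of 10 CPM in 2 libraries, DESeq2 1.42.0, limma-voom (limma 3.58.1), a fit of just the 4 libraries compared, a replicate block, a non-robust fit, an offset removing each library's trend with gene length, and each library left out. No label links replicates of the same number, and the model assumed no link. The procedure was tested on simulated data. Figures used matplotlib 3.10.9.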

Additional observations from a re-analysis of the deposited data

Results flagged for a closer look

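The change from GV to MII differed between the maturation routes for ATG3 and MAP1LC3B, by the edgeR test of IVM MII against IVO MII, which is the test of that difference since both routes are set against the same GV libraries. ATG3 had a log2 fold change of 2.06 (adjusted p = 0.000404), with -0.25 in IVM MII over GV and -2.31 in IVO MII over GV. MAP1LC3B had -0.88 (adjusted p = 0.0115), with 1.19 in IVM MII over GV and 2.07 in IVO MII over GV, and its adjusted p ran to 0.0668 when 1 library was left out. Groups of 2 libraries are too small to look for a library that stands apart.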

How the results depend on the processing

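The calls of ATG7, BECN1, MAP1LC3B and LAMP2 against GV, of ATG3 in IVO MII against GV and of ATG3 between the MII groups kept their direction and their side of the threshold in all 16 alternatives. Genes that were not called changed sign in places, and the cause was not tested. In IVM MII against IVO MII, ATG7 was at -0.027 with RLE factors and with DESeq2 and at -0.018 with a gene length offset, BECN1 at 0.13 and LAMP2 at 0.18 by library totals, and LAMP2 at 0.012 under the strict filter. In IVM MII against GV, ULK1 was at 0.28 and ATG3 at 0.050 by library totals, and ATG3 at 0.25 with the length offset. In IVO MII against GV, GABARAPL2 was at -0.25 under the strict filter, and with the length offset ATG12 was at 0.14 and GABARAP, called at -0.88 in the fit as reported, was at 0.00824.

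Library totals gave 894 genes lower in IVM MII than in IVO MII, with 2 of the 10 genes higher and 7 of the wider list lower, and gave 35 of the wider list higher and 1 of the 10 lower in IVM MII than in GV. The strict filter tested 8051 genes in place of 15815, so its counts are out of fewer genes than in the fit as reported. With it, 1043 genes were lower and 2 of the 10 higher in IVM MII against IVO MII. It gave 4694 called (2303 higher, 2391 lower, 15 of the wider list higher) in IVM MII against GV and 5659 called (2762 higher, 2897 lower, 15 of the wider list higher, 5 of the 10 lower) in IVO MII against GV. ULK1 was not tested under it.

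Without 1 library, IVM MII against IVO MII had 2123 to 3541 genes called, 1343 to 2077 higher and 780 to 1489 lower, with 6 to 12 of the wider list higher, 5 to 11 lower and 0 to 1 of the 10 lower. The lowest counts came without IVM MII replicate 2. In IVM MII against GV, 2563 to 4383 were higher. Log2 fold changes of IVM MII over IVO MII ran from -0.87 to 0.14 for ULK1, -0.22 to 0.045 for BECN1, -0.21 to 0.28 for ATG7 and -0.14 to 0.060 for LAMP2. Those of IVM MII over GV ran from -0.65 to 0.37 for ULK1 and -0.54 to 0.12 for ATG3, and those of IVO MII over GV from -0.081 to 0.20 for GABARAPL2.

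Replicate numbers were not shown to pair the samples, since deviations of same-numbered libraries correlated at -0.0907, -0.116 and 0.133. With the replicate block, the calls in IVM MII against IVO MII came to 2180 higher and 1545 lower, and no call of the 10 genes changed.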

Other observations

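In IVM MII, 2 of the 10 autophagy genes, SQSTM1 and ULK1, differed by more than 2-fold between the libraries, against 12.1% of all genes tested. In IVO MII and in GV this held for 0 of the 10, against 14.5% and 7.31% of all genes. Among the 100 other tested genes of the wider pathway the number was 15 in IVM MII, 16 in IVO MII and 3 in GV. MAP1LC3C, which was not called in any comparison, had 1854 and 596 counts in IVM MII, 634 and 1777 in IVO MII, and 1241 and 2206 in GV. GABARAPL1 had 760 and 391 counts in IVM MII, 315 and 744 in IVO MII, and 299 and 461 in GV.

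The 10 genes held 0.186% and 0.180% of all counts in the IVM MII libraries, 0.137% and 0.144% in IVO MII, and 0.168% and 0.181% in GV. Their summed TPM was 1993 and 1910 in IVM MII, 1427 and 1478 in IVO MII, and 1427 and 1561 in GV. By TMM-scaled CPM their sum was 1531 and 1730 in IVM MII, 1470 and 1432 in IVO MII, and 1795 and 2012 in GV. The order of IVM MII and GV thus depended on the scale.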
